A study of Arabidopsis thaliana with 16 samples.

Results

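The comparison sets Arabidopsis thaliana seedlings labelled as carrying mutations in 3 genes of the nuclear basket against wild-type seedlings. Its members are the 2 libraries labelled nup50c nup82 nup136 and the 2 libraries of wild type Col-0 (WT), 4 of the 16 libraries of the series, described over the 22427 of 32833 listed genes that passed a filter on low counts. Every library came from whole seedlings that were 9 days old, grown on MS medium at reduced strength with 1% sucrose and given no treatment. Beside them stand the 2 double mutants that carry nup136 with 1 of the other mutations, nup50c nup136 and nup82 nup136, with 2 libraries each. The labels name no allele or insertion site and no number of lines. They also leave unsaid whether replicate libraries were grown as separate cultures. P-values therefore measure the spread between libraries of the same genotype, estimated over all 16 libraries of the series. That spread may be technical.

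The nuclear pore complex is the gate through which proteins and RNA pass between nucleus and cytoplasm, and the nuclear basket is the cage of filaments on its inner face. In plants NUP136 and its relative NUP82 are basket proteins, and NUP50 proteins carry a domain that binds RAN, the small GTPase whose nucleotide state gives transport its direction. Cargo proteins are carried by importins and exportins, and messenger RNA leaves the nucleus after helicases and adaptor proteins have been loaded onto it.

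The libraries labelled nup50c nup82 nup136 held 41708210 and 43764381 gene counts, against 45100843 and 38045728 in WT, within a range of 37923632 to 46194172 over the series. Levels are CPM, the read counts divided by library totals scaled by the TMM method. A gene was called higher or lower at a Benjamini-Hochberg adjusted p under 0.05 in the quasi-likelihood test of edgeR, fitted over all 16 libraries and adjusted over all 22427 genes. A zero count allows up to 3 counts in that library, which is 0.0704 CPM in the labelled triple mutant and 0.0738 CPM in WT. Such limits cover counting error only. Libraries of a genotype correlated across genes at a Pearson r of 0.987 in the labelled triple mutant and 0.986 in WT.

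The 3 mutated genes were read first, since they bear on the labels. NUP50C (AT4G11790, chromosome 4, 7090313 to 7093492 in TAIR10) had 11.3 and 11.0 CPM in the labelled triple mutant, against 40.6 and 43.3 CPM in WT (log2 fold change -1.91 ± 0.13, adjusted p = 1.18e-11). NUP136 (AT3G10650, chromosome 3, 3325074 to 3331282) had 18.6 and 20.2 CPM in the labelled triple mutant, against 49.1 and 46.8 CPM in WT (log2 fold change -1.31 ± 0.13, adjusted p = 8.49e-09). Both genes were lower in each labelled triple mutant library than in either WT library. NUP82 (AT5G20200, chromosome 5, 6816612 to 6821827) had 36.7 and 37.5 CPM in the labelled triple mutant, against 29.5 and 35.0 CPM in WT, so that its labelled triple mutant libraries stood above both WT libraries, without a call (log2 fold change 0.20 ± 0.11, adjusted p = 0.123); the adjusted p was 0.0495 without WT replicate 2. NUP82 averaged 27.5 CPM in the libraries labelled nup82 nup136, below the labelled triple mutant (log2 fold change 0.43 ± 0.11, adjusted p = 0.00339), and 21.6 CPM in nup82 and 29.0 CPM in nup50c nup82. AT2G41980, chosen after its values were seen, had 21.4 and 23.8 CPM in the labelled triple mutant, against 19.2 and 18.5 CPM in WT without a call (adjusted p = 0.181). It averaged 12.9 CPM in the libraries labelled nup82 nup136, 0.516 CPM in nup82 and 0.596 CPM in nup50c nup82, so that its level also differed among libraries with nup82 in their label. What sets these libraries apart was not tested. The counts cover the whole gene and the position of the nup82 allele is not given in the labels, so they do not check the NUP82 part of the genotype, and the group is called the labelled triple mutant throughout.

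Of the tested genes 47.6% differed from WT, in nearly equal numbers each way. In the labelled triple mutant 5229 genes (23.3%) were higher and 5445 (24.3%) were lower. Every count of called list members below is to be read beside these shares. Of the called genes, 1401 rose and 1912 fell at least 2-fold, and 326 rose and 198 fell at least 8-fold. Against nup50c nup136, 2261 genes (10.1%) were higher and 2663 (11.9%) lower, and against the libraries labelled nup82 nup136 3347 (14.9%) were higher and 3331 (14.9%) lower. All 3 comparisons share the labelled triple mutant libraries. Against nup50c nup136, 1435 genes were higher and 1695 lower without labelled triple mutant replicate 1, and 1429 were higher and 1681 lower without replicate 2. In each called gene whose values are given here by library, both labelled triple mutant libraries lay beyond both WT libraries. Over all 22427 tested genes, called or not, both lay above both WT libraries in 8593 and below both in 8436. For the genes with the largest log2 fold changes this separation was a condition of the choice.

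**Figure D1:**
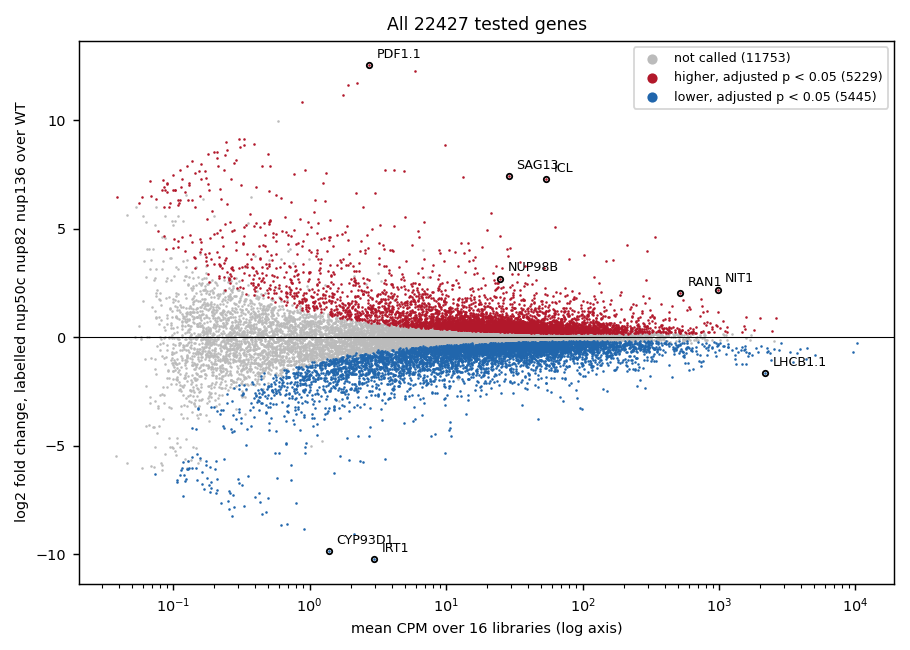
Mean level over the 16 libraries (CPM, log axis) against the log2 fold change of the labelled triple mutant over WT for the 22427 tested genes, with genes called higher and lower at an adjusted p under 0.05 in colour. Of 4 equal classes of level, the lowest held 727 genes called higher and 1027 called lower, and the highest 1675 called higher and 1745 called lower.

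Called genes were not spread evenly over gene structures. Exons were counted in the transcript with most of them. Of 512 protein-coding genes with 21 or more exons, 43 (8.4%) were higher and 221 (43.2%) lower, with a median log2 fold change of -0.21. Among genes with 1 exon, 745 of 3113 (23.9%) were higher and 662 (21.3%) lower. These shares lay near those of all tested protein-coding genes, 24% higher and 24.8% lower. In genes with 11 to 20 exons 585 of 2995 (19.5%) were higher and 859 (28.7%) lower. Many-exon genes are also long. In the longest of 4 classes of listed gene length, 19% of 5603 tested genes were higher and 30.1% lower. Shares by exon number were also read among genes over 2316 bases. These include 504 of the 512 genes with 21 or more exons, so the share of that group could hardly change. Of the 504, 42 were higher and 218 (43.3%) lower. Of 1766 genes with 1 to 5 exons over the same length, 415 were higher and 450 (25.5%) lower. Length was not matched among these long genes, and its part in the shares was not tested. The median log2 fold change of genes with 21 or more exons was -0.051 against nup50c nup136, and -0.11 against the libraries labelled nup82 nup136. These shares are a description without a test, since genes are not replicates.

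**Figure D2:**
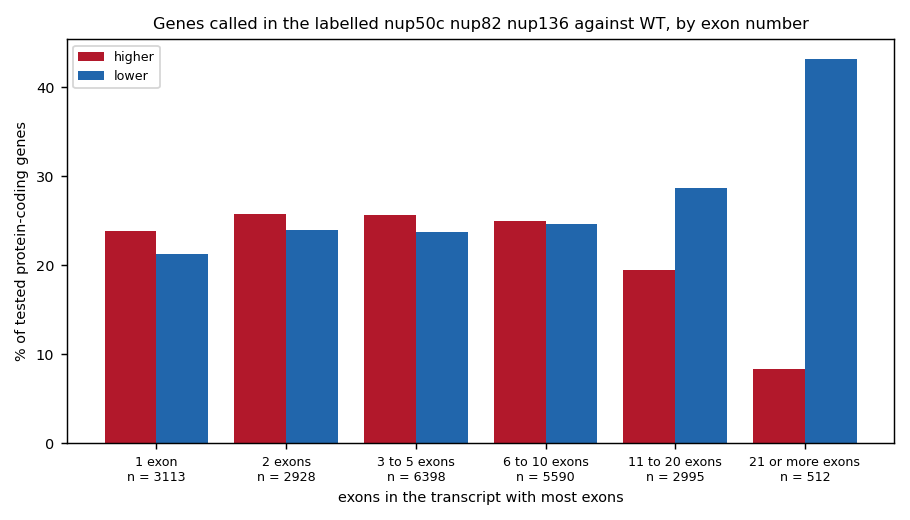
Percentage of protein-coding genes called higher and lower in the labelled triple mutant than in WT, by number of exons. The share of genes called lower stands at 43.2% for 21 or more exons, against 21.3% for 1 exon and 24.8% of all tested protein-coding genes.

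Among genes of the pore itself the largest rises were in NUP98B, RAE1 and NDC1. Of 7 basket genes 1 was higher and 2 lower, the 2 being NUP50C and NUP136. NUP50A, another NUP50 gene, had 53.6 and 55.6 CPM in the labelled triple mutant, against 45.1 and 42.7 CPM in WT (log2 fold change 0.31 ± 0.083, adjusted p = 0.00292). NUA, the plant relative of the basket protein Tpr, had 76.6 and 73.5 CPM in the labelled triple mutant, against 82.9 and 83.0 CPM in WT without a call (adjusted p = 0.156). Of 32 tested genes of the pore scaffold, channel and lamina, 10 were higher (31.2%) and 5 lower (15.6%), against 23.3% and 24.3% of all tested genes, with a median log2 fold change of 0.06 (-3.82e-05 over all tested genes). The count of lower genes was 3 without labelled triple mutant replicate 1.

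NUP98B, one of 2 genes for the channel nucleoporin NUP98, had 68.2 and 63.2 CPM in the labelled triple mutant, against 10.7 and 9.57 CPM in WT (log2 fold change 2.70 ± 0.14, adjusted p = 3.36e-14). The level was 6.501-fold higher on the CPM scale. RAE1, a partner of NUP98 in messenger RNA export, had 104 and 98.7 CPM in the labelled triple mutant, against 33.3 and 31.1 CPM in WT (log2 fold change 1.66 ± 0.089, adjusted p = 8.59e-14). NDC1, which anchors the pore in the membrane, had 25.9 and 24.9 CPM in the labelled triple mutant, against 12.6 and 12.6 CPM in WT (log2 fold change 1.01 ± 0.12, adjusted p = 9.95e-08). NUP98B averaged 36.2 CPM in nup50c nup136 and 35.6 CPM in the libraries labelled nup82 nup136, both below the labelled triple mutant (adjusted p = 1.29e-05 and 7.20e-06), and RAE1 averaged 70.2 CPM in nup50c nup136 and 61.6 CPM in the libraries labelled nup82 nup136 (adjusted p = 5.03e-05 and 5.61e-07). Among genes that fell, NUP205 of the inner ring had 72.9 and 70.4 CPM in the labelled triple mutant, against 98.1 and 101 CPM in WT, and CRWN1, a lamina-like protein below the nuclear envelope, had 96.0 and 90.14 CPM in the labelled triple mutant, against 137 and 138 CPM in WT (adjusted p = 0.000448 and 1.61e-06). NUP98A, the other NUP98 gene, had 67.2 and 68.4 CPM in the labelled triple mutant, against 81.1 and 77.0 CPM in WT without a call (adjusted p = 0.177).

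Genes of the RAN cycle and the transport receptors rose or were not called. Of 23, 14 were higher and 0 lower, with a median log2 fold change of 0.28. RAN1 (AT5G20010, chromosome 5, 6760094 to 6762330) had 1103 and 1120.2 CPM in the labelled triple mutant, against 266 and 279.6 CPM in WT (log2 fold change 2.03 ± 0.080, adjusted p = 3.57e-16). Its tandem neighbour RAN2 had 695 and 686 CPM in the labelled triple mutant, against 215 and 256 CPM in WT (log2 fold change 1.55 ± 0.084, adjusted p = 8.43e-14). They encode nearly identical proteins, so the split of reads between them is uncertain, while both moved the same way. NTF2B, which brings RAN back into the nucleus, had 229 and 223 CPM in the labelled triple mutant, against 73.3 and 78.3 CPM in WT (log2 fold change 1.58 ± 0.085, adjusted p = 8.26e-14). XPO1B, an exportin, had 75.6 and 81.8 CPM in the labelled triple mutant, against 26.5 and 26.9 CPM in WT (log2 fold change 1.56 ± 0.10, adjusted p = 3.06e-12). In each of these 4 genes both labelled triple mutant libraries lay above both WT libraries, as they did in 8593 of the 22427 tested genes. RAN1 averaged 714 CPM in nup50c nup136 and 659 CPM in the libraries labelled nup82 nup136, and was higher in the labelled triple mutant than in either (adjusted p = 9.28e-07 and 4.54e-08). RANGAP1 and RANGAP2, which switch RAN to its GDP form, had 40.7 and 43.0 CPM in the labelled triple mutant, against 31.4 and 39.5 CPM in WT, and 32.4 and 25.1 CPM in the labelled triple mutant, against 25.7 and 24.8 CPM in WT, without a call (adjusted p = 0.0598 and 0.193).

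Messenger RNA export factors moved in both directions. Of 20, 9 were higher (45%) and 3 lower (15%), against 23.3% and 24.3% of all tested genes. The median log2 fold change was 0.22. UAP56A and UAP56B, near-identical copies of a helicase that recruits export adaptors and therefore uncertain one by one, had 355 and 350.4 CPM in the labelled triple mutant, against 184 and 186 CPM in WT, and 262 and 269 CPM in the labelled triple mutant, against 127 and 138 CPM in WT (log2 fold changes 0.93 ± 0.085 and 1.00 ± 0.075, adjusted p = 1.50e-09 and 3.69e-11). LOS4, the relative of the yeast helicase Dbp5, which in yeast strips export factors from the RNA at the pore, had 152 and 150.5 CPM in the labelled triple mutant, against 89.7 and 86.1 CPM in WT (log2 fold change 0.78 ± 0.078, adjusted p = 8.49e-09). The adaptor ALY4 had 70.3 and 66.8 CPM in the labelled triple mutant, against 45.5 and 39.0 CPM in WT (log2 fold change 0.70 ± 0.085, adjusted p = 2.17e-07). The 3 genes that fell, SAC3A, SAC3B and CEN2, encode scaffolds and a centrin of the TREX-2 complex, which links transcription to export at the pore. SAC3A had 30.5 and 32.6 CPM in the labelled triple mutant, against 44.1 and 52.6 CPM in WT (log2 fold change -0.61 ± 0.11, adjusted p = 7.71e-05). CEN2 had 5.52 and 5.81 CPM in the labelled triple mutant, against 19.6 and 15.2 CPM in WT (log2 fold change -1.62 ± 0.16, adjusted p = 8.61e-09). Other TREX-2 members, named after their values were seen, rose: THP1 had 32.7 and 30.0 CPM in the labelled triple mutant, against 24.0 and 25.0 CPM in WT, and CEN1 had 49.6 and 56.4 CPM in the labelled triple mutant, against 41.4 and 41.3 CPM in WT (adjusted p = 0.00738 and 0.00521).

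Of the 20 SR proteins, which bind pre-mRNA in splicing, 6 were higher (30%) and 3 lower (15%), against 23.3% and 24.3% of all tested genes. RS31A had 42.0 and 38.9 CPM in the labelled triple mutant, against 12.1 and 10.3 CPM in WT (log2 fold change 1.84 ± 0.15, adjusted p = 9.27e-10). SR34B had 15.0 and 16.4 CPM in the labelled triple mutant, against 23.59 and 22.5 CPM in WT (log2 fold change -0.56 ± 0.11, adjusted p = 0.000170).

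**Figure D3:**
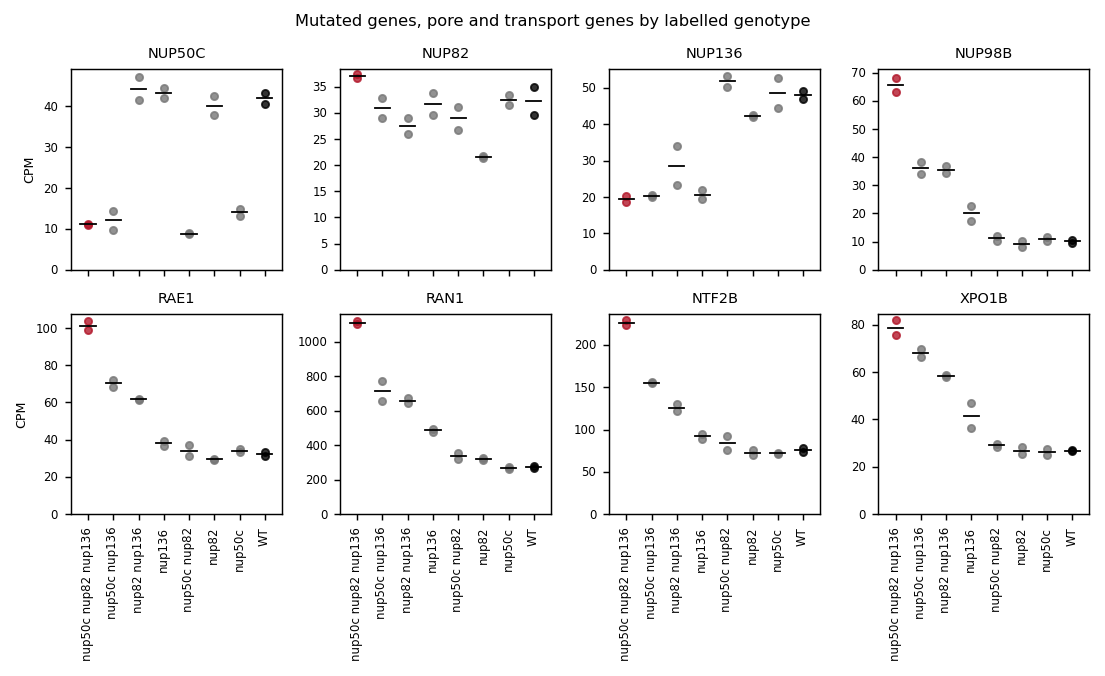
Level (CPM) of NUP50C, NUP82, NUP136, NUP98B, RAE1, RAN1, NTF2B and XPO1B in each library of the 8 genotypes, with the labelled triple mutant at the left, WT at the right and a bar at the mean of the 2 libraries. RAN1 stands at 1112 CPM in the labelled triple mutant and at 273 CPM in WT, and NUP82 at 37.1 CPM in the labelled triple mutant and 32.2 CPM in WT.

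Genes of protein breakdown and synthesis rose by small amounts or were not called. Of 31 proteasome subunits, 23 were higher and 0 lower (median log2 fold change 0.26), and of 23 cytosolic ribosomal proteins 10 were higher and 0 lower (median 0.17). RPT1A, an ATPase of the proteasome's regulatory particle, had 251 and 247 CPM in the labelled triple mutant, against 178 and 174 CPM in WT (log2 fold change 0.50 ± 0.068, adjusted p = 1.18e-06). The ubiquitin receptor RPN10 had 178 and 178 CPM in the labelled triple mutant, against 139 and 129.6 CPM in WT (log2 fold change 0.41 ± 0.081, adjusted p = 0.000196). RPL5A, a protein of the large ribosomal subunit, had 1052 and 1053 CPM in the labelled triple mutant, against 791 and 824 CPM in WT (log2 fold change 0.38 ± 0.076, adjusted p = 0.000188). Both counts were smaller with any 1 of the 4 libraries left out, by ranges given at the end. The count of higher genes over all tested genes was then smaller too.

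Promoters of these genes often hold the site II element, a motif of growth-related plant genes, searched as TGGGCC on both strands in the 250 bases before the gene start. It lay in 13 of 31 proteasome promoters (41.9%) and 13 of 23 ribosomal ones (56.5%), against 15.7% of all 21535 protein-coding promoters read, 19.6% of those of genes called higher and 11.1% of those of genes called lower. A match describes letters and is not a binding site. The promoters of RPT1A (chr1:20068501-20068750, minus strand) and of the beta subunit gene PBD1 (chr3:8010863-8011112, minus strand) are shown because they had the largest rises among proteasome genes that hold the motif, here in capitals. They were read 5′ to 3′ from the RefSeq genome TAIR10.1, whose annotation gave 32532 of 32548 matched genes the same start and end as the deposited table.
RPT1A: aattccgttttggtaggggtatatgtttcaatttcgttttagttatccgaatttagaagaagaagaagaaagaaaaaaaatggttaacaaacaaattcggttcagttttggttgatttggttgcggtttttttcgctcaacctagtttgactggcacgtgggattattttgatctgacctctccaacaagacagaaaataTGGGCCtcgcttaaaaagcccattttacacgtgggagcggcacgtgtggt
PBD1: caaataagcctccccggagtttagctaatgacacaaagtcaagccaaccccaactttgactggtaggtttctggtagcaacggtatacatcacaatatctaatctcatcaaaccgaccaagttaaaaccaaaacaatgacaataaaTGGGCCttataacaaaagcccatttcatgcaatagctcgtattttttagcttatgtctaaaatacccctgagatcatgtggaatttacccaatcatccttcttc
PBD1 had 42.1 and 42.1 CPM in the labelled triple mutant, against 34.3 and 29.2 CPM in WT (log2 fold change 0.41 ± 0.0999, adjusted p = 0.00156).

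Genes of the photosynthetic apparatus fell with few exceptions. Of 41 tested nuclear genes of photosystems and antennae, 0 were higher and 38 were lower, with a median log2 fold change of -0.69; the list as a whole summed to 47466 and 47900.4 CPM in the labelled triple mutant, against 76387 and 79319 CPM in WT. In whole seedlings, fewer cells of a type and less RNA per cell cannot be told apart. LHCB1.1, a light-harvesting protein of photosystem II, had 808 and 799 CPM in the labelled triple mutant, against 2481 and 2596 CPM in WT (log2 fold change -1.66 ± 0.073, adjusted p = 2.59e-15), and LHCB2.3 had 95.1 and 87.6 CPM in the labelled triple mutant, against 235 and 287 CPM in WT (log2 fold change -1.51 ± 0.088, adjusted p = 3.47e-13). Both are members of families of near-identical copies whose reads may be split, and the neighbours LHCB1.2 and LHCB1.3 fell too, with log2 fold changes of -1.15 ± 0.073 and -0.66 ± 0.071. PSAD2, a subunit of photosystem I, had 298 and 307 CPM in the labelled triple mutant, against 643 and 725 CPM in WT (log2 fold change -1.18 ± 0.088, adjusted p = 3.66e-11). LHCB1.1 averaged 1641 CPM in nup50c nup136 and 1761 CPM in the libraries labelled nup82 nup136, both above the labelled triple mutant (adjusted p = 1.07e-10 and 1.06e-11).

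Genes of carbon fixation and chlorophyll synthesis fell in most cases as well. Of 5 genes for Rubisco's small subunit and its activase 0 were higher and 4 lower. RBCS2B, which has near-identical tandem copies and is uncertain on its own, had 848 and 784 CPM in the labelled triple mutant, against 1997 and 1887 CPM in WT (log2 fold change -1.25 ± 0.085, adjusted p = 6.57e-12). The activase RCA had 2947 and 2980.2 CPM in the labelled triple mutant, against 4320.5 and 4231 CPM in WT (log2 fold change -0.53 ± 0.070, adjusted p = 8.10e-07). RBCS1A changed least among those called, with 9704 and 9308 CPM in the labelled triple mutant, against 10960.2 and 11809 CPM in WT (log2 fold change -0.26 ± 0.077, adjusted p = 0.00718); its adjusted p was 0.0859 without labelled triple mutant replicate 2 and 0.0965 without WT replicate 2. Of 18 genes of chlorophyll synthesis and its regulators 2 were higher and 13 lower. PORB and PORC, which reduce protochlorophyllide in the light, had 606 and 580.5 CPM in the labelled triple mutant, against 875 and 914 CPM in WT, and 126 and 126 CPM in the labelled triple mutant, against 198 and 203 CPM in WT (adjusted p = 1.86e-07 and 2.64e-07). GLK1, a transcription factor that switches on chloroplast genes, had 31.2 and 32.1 CPM in the labelled triple mutant, against 49.6 and 49.9 CPM in WT (log2 fold change -0.65 ± 0.12, adjusted p = 0.000202). The 2 genes of this list called higher, PORA and GLK2, belong to the same families. Over the 10 alternative analyses described below their log2 fold changes were 2.03 to 2.11 and 0.36 to 0.49, and each kept its call in 8. Of 95 tested genes of the plastid genome 1 was higher (1.05%) and 22 lower (23.2%), against 23.3% and 24.3% of all tested genes. The share called lower was thus near that of all genes, while the median log2 fold change was -0.55. The libraries were made for messenger RNA. Plastid transcripts held 0.0287% and 0.0265% of counts in the labelled triple mutant and 0.0436% and 0.0386% in WT.

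**Figure D4:**
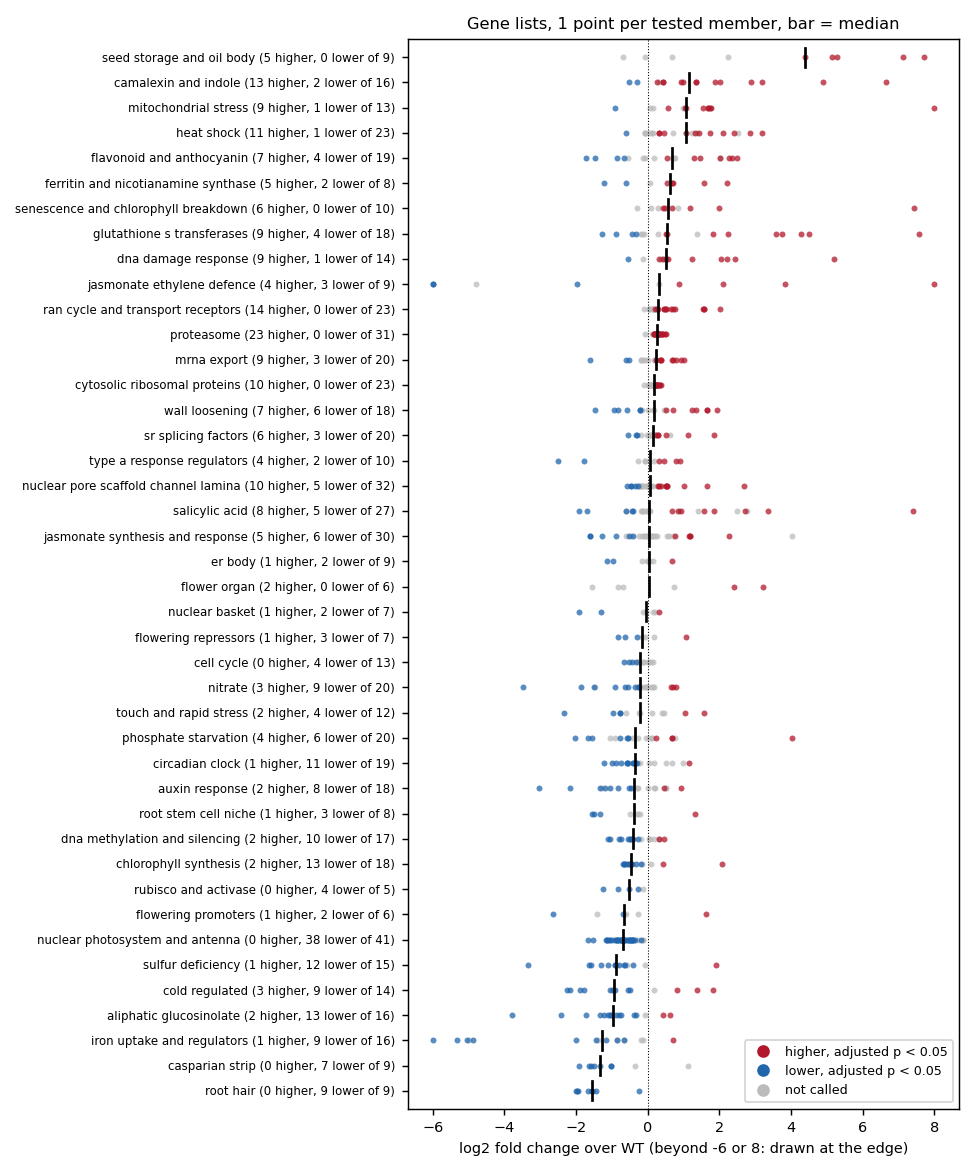
Log2 fold change of the labelled triple mutant over WT for each tested gene of each list (a point is a gene, a bar the list's median); values beyond -6 or 8 are drawn at the edge. The photosystem list sits left of 0 (median -0.69) and the proteasome list right of 0 (median 0.26).

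The largest rises were in genes that were barely detected in WT. PDF1.1, a plant defensin, had 17.0 and 18.1 CPM in the labelled triple mutant, against 0 and 0 CPM in WT, at least 237-fold higher (adjusted p = 0.00118). NATA1, an ornithine acetyltransferase that jasmonate induces, had 15.3 and 13.8 CPM in the labelled triple mutant, against 0 and 0 CPM in WT, at least 197-fold higher (adjusted p = 0.0120, or 0.0549 without WT replicate 1). DXPS1, CSLG2 and AOX1D, the last an alternative oxidase of mitochondria, also had 0 counts in both WT libraries and were at least 135.6-fold, 128-fold and 93.2-fold higher (adjusted p = 0.00589, 0.000170 and 0.00476). Each was detected in every other mutant too. Means ran from 0.0961 (nup82) to 2.39 CPM (nup50c nup136) for DXPS1 and from 0.264 (nup82) to 1.59 CPM (nup136) for CSLG2. For AOX1D they ran from 0.0232 (libraries labelled nup82 nup136) to 2.48 CPM (nup136). PDF1.1 averaged 0.849 CPM in nup50c nup136 and 3.33 CPM in the libraries labelled nup82 nup136 (adjusted p = 0.0140 and 0.0647 for the labelled triple mutant against each), and NATA1 averaged 7.09 CPM in nup50c nup136 and 0.468 CPM in the libraries labelled nup82 nup136 (adjusted p = 0.577 and 0.0426). NATA1 was detected in the other mutants too, at a mean of 16.8 CPM in nup136, 2.04 CPM in nup82, 3.48 CPM in nup50c and 3.08 CPM in nup50c nup82. The nup136 mean lay above the labelled triple mutant's 14.6 CPM, a difference that was not tested.

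SAG13, a marker of leaf senescence and oxidative stress, had 177 and 162 CPM in the labelled triple mutant, against 1.22 and 0.691 CPM in WT, 177-fold higher (adjusted p = 0.000170). ICL, isocitrate lyase of the glyoxylate cycle that turns seed oil into sugar, had 302 and 297 CPM in the labelled triple mutant, against 1.24 and 2.63 CPM in WT, 154-fold higher (log2 fold change 7.30 ± 0.37, adjusted p = 3.73e-07; the log2 fold change was 7.91 without WT replicate 2). ICL also averaged 109 CPM in the libraries labelled nup82 nup136, against 10.4 CPM in nup50c nup136. AT1G10585, a gene of the bHLH family, had 22.5 and 19.6 CPM in the labelled triple mutant, against 0.0452 and 0.160 CPM in WT, and WAK3, a wall-associated kinase, had 9.92 and 10.7 CPM in the labelled triple mutant, against 0.0452 and 0.160 CPM in WT (adjusted p = 1.94e-13 and 0.000336). ELI3-2, named for its induction by elicitors, had 25.4 and 25.3 CPM in the labelled triple mutant, against 0.226 and 0 CPM in WT (adjusted p = 0.000444). In the other mutants ELI3-2 averaged from 0.564 (nup82) to 5.70 CPM (nup136). WAK3 averaged from 1.15 (libraries labelled nup82 nup136) to 4.42 CPM (nup136). With WT levels this low the size of the change rests on single WT libraries: without WT replicate 2, AT1G10585 was 465-fold higher (95% counting interval 128 to 3840.0) and WAK3 was 228-fold higher (95% counting interval 62.9 to 1884). The log2 fold change of AT1G10585 was 7.02 without replicate 1, that of WAK3 was 5.99 without replicate 1, and that of ELI3-2 was 6.79 without replicate 2. Without replicate 1, where ELI3-2 had 0 counts in the other WT library, it was at least 318-fold higher.

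AT5G37140 (chromosome 5, 14690436 to 14692851) had 24.5 and 23.9 CPM in the labelled triple mutant, against 0 and 0.106 CPM in WT (adjusted p = 4.38e-14). The gene averaged 33.6 CPM in nup136, 15.7 CPM in nup50c nup136 and 4.72 CPM in the libraries labelled nup82 nup136, and 0 CPM in nup50c, 0.0479 CPM in nup82 and 0.0265 CPM in nup50c nup82. Its higher levels thus went with the nup136 label, and its log2 fold change against WT was 7.79 without WT replicate 1. Without WT replicate 2, which held the only WT counts, it was at least 356-fold higher. By difference in mean CPM the largest gains were in NIT1, CAT3, LTP2, EARLI1 and MT2B. NIT1, a nitrilase, had 2253 and 2306 CPM in the labelled triple mutant, against 489 and 508 CPM in WT (log2 fold change 2.19 ± 0.086, adjusted p = 3.57e-16). LTP2 and EARLI1, encoding small secreted lipid-transfer-type proteins, had 1549 and 1657 CPM in the labelled triple mutant, against 67.0 and 65.1 CPM in WT, and 1363 and 1365 CPM in the labelled triple mutant, against 87.1 and 88.5 CPM in WT (log2 fold changes 4.602 ± 0.15 and 3.96 ± 0.36, adjusted p = 2.25e-12 and 2.42e-05). CAT3, a catalase, had 3646 and 3643 CPM in the labelled triple mutant, against 2002 and 1886 CPM in WT (log2 fold change 0.91 ± 0.073, adjusted p = 1.47e-10). The metallothionein gene MT2B had 2783 and 2853 CPM in the labelled triple mutant, against 1593 and 1504 CPM in WT (log2 fold change 0.86 ± 0.12, adjusted p = 1.03e-05). Among these 5, LTP2 averaged 418 CPM in nup50c nup136 and 306 CPM in the libraries labelled nup82 nup136.

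The largest falls included transport and secreted proteins and 2 MADS-box factors. IRT1 (chromosome 4, 10707344 to 10709015), the iron transporter of the root surface, had 0 counts in both libraries of the labelled triple mutant, against 2.17 and 4.92 CPM in WT, at least 50.3-fold lower (adjusted p = 0.00749; at least 30.8-fold lower without WT replicate 2). The cytochrome P450 gene CYP93D1 also had 0 counts in both, against 2.92 and 2.55 CPM in WT, at least 38.8-fold lower (adjusted p = 1.27e-08). AGL14 and AGL19, the MADS-box genes, had 0.576 and 0.826 CPM in the labelled triple mutant, against 17.41 and 16.1 CPM in WT, and 0.0961 and 0.0918 CPM in the labelled triple mutant, against 6.02 and 4.33 CPM in WT (log2 fold changes -4.57 ± 0.21 and -5.74 ± 0.57, adjusted p = 7.02e-15 and 2.08e-08). SP1L2, of a family that binds microtubules, had 0.432 and 0.528 CPM in the labelled triple mutant, against 11.3 and 11.3 CPM in WT (log2 fold change -4.55 ± 0.23, adjusted p = 2.50e-14). AGL14 averaged 3.31 CPM in nup50c nup136 and 2.37 CPM in the libraries labelled nup82 nup136, both above the labelled triple mutant (adjusted p = 6.99e-08 and 3.63e-06). PCR1, a plant cadmium resistance protein, was called lower with 0 counts in both libraries against 0.0452 and 0.266 CPM in WT (adjusted p = 0.0470). The call was lost without WT replicate 2 and without labelled triple mutant replicate 1 or 2. PCR1 was near 0 in WT as well, and reached the mean of 1 CPM needed for naming through other mutants. It averaged 4.57 CPM in nup136, 4.22 CPM in nup50c, 3.63 CPM in nup50c nup82 and 2.77 CPM in nup82.

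Defence genes split by pathway and by gene. The camalexin and indole list, whose products are antimicrobial tryptophan derivatives, had 13 of 16 higher and 2 lower (median log2 fold change 1.16). PAD3, the last enzyme of camalexin synthesis, had 92.2 and 94.1 CPM in the labelled triple mutant, against 8.48 and 11.9 CPM in WT (log2 fold change 3.20 ± 0.53, adjusted p = 0.00106). CYP71A13, an earlier step, had 6.17 and 4.18 CPM in the labelled triple mutant, against 0.0905 and 0 CPM in WT (adjusted p = 0.0278); leaving out any 1 of the 4 libraries took its adjusted p to between 0.0546 and 0.133. Its log2 fold change was 5.79 without WT replicate 2, and without WT replicate 1, which held the only WT counts, it was at least 64.9-fold higher. FOX1, of the indole carbonyl nitrile branch, had 10.9 and 13.0 CPM in the labelled triple mutant, against 2.397 and 0.798 CPM in WT (log2 fold change 2.88 ± 0.67, adjusted p = 0.00594, and 3.90 for the log2 fold change without WT replicate 1). PAD3 averaged 17.2 CPM in nup50c nup136 and 14.2 CPM in the libraries labelled nup82 nup136.

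The salicylic acid list had 8 of 27 higher (29.6%) and 5 lower (18.5%), against 23.3% and 24.3% of all tested genes, and 3 lower without labelled triple mutant replicate 1 or WT replicate 2. PR1, the standard marker of the salicylic acid response, had 38.3 and 36.7 CPM in the labelled triple mutant, against 0.362 and 0.0532 CPM in WT (log2 fold change 7.40 ± 1.69, adjusted p = 0.00669). It was 705-fold higher (95% counting interval 195 to 5821) without WT replicate 1, and its log2 fold change was 6.68 without WT replicate 2, where the adjusted p was 0.0524. PR1 averaged 2.19 CPM in nup50c nup136 and 2.298 CPM in the libraries labelled nup82 nup136. Its mean was nearer to the labelled triple mutant in nup50c nup82 (22.2 CPM), nup136 (20.4 CPM), nup50c (13.9 CPM) and nup82 (8.39 CPM), differences that were not tested. The salicylic acid enzyme gene PBS3 had 4.44 and 5.00 CPM in the labelled triple mutant, against 0.588 and 0.851 CPM in WT (log2 fold change 2.72 ± 0.41, adjusted p = 6.03e-06). ICS1, the main enzyme of its synthesis, had 9.51 and 10.9 CPM in the labelled triple mutant, against 9.41 and 11.2 CPM in WT without a call (adjusted p = 0.945), and WRKY70, a transcription factor of the same response, fell, with 19.0 and 17.3 CPM in the labelled triple mutant, against 57.3 and 60.3 CPM in WT (log2 fold change -1.69 ± 0.21, adjusted p = 6.20e-05).

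Of 30 genes of jasmonate synthesis and response 5 were higher (16.7%) and 6 lower (20%), against 23.3% and 24.3% of all tested genes. JAZ1, a repressor that the hormone induces, had 57.6 and 58.9 CPM in the labelled triple mutant, against 29.2 and 21.7 CPM in WT (log2 fold change 1.19 ± 0.18, adjusted p = 0.000112). The storage protein gene VSP2 had 28.8 and 26.6 CPM in the labelled triple mutant, against 66.6 and 68.1 CPM in WT (log2 fold change -1.28 ± 0.40, adjusted p = 0.0275), a call lost without any 1 of the 4 libraries (adjusted p 0.0801 to 0.120). In the jasmonate and ethylene defence list 4 of 9 were higher and 3 lower (1 lower without WT replicate 1 or without either labelled triple mutant library). The chitin-binding protein PR4 had 341 and 341 CPM in the labelled triple mutant, against 90.7 and 68.1 CPM in WT (log2 fold change 2.102 ± 0.21, adjusted p = 2.39e-05). Defensins of 1 family went opposite ways: beside PDF1.1 above, PDF1.2A had 0 counts in both labelled triple mutant libraries, against 2.06 and 1.14 CPM in WT, at least 22.7-fold lower (adjusted p = 0.00527). The PDF1.2 genes are close copies, so their values one by one are uncertain.

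Of 18 tested glutathione S-transferases, which attach glutathione to toxic compounds, 9 were higher (50%) and 4 lower (22.2%). The shares of all tested genes were 23.3% and 24.3%. GSTF6 had 874 and 898 CPM in the labelled triple mutant, against 48.2 and 43.5 CPM in WT (log2 fold change 4.27 ± 0.29, adjusted p = 2.90e-06); it has a close tandem copy, GSTF7. GSTU12 had 6.17 and 7.48 CPM in the labelled triple mutant, against 0.181 and 0.425 CPM in WT (log2 fold change 4.50 ± 0.57, adjusted p = 4.25e-07, with 5.21 for the log2 fold change without WT replicate 2). GSTU3 had 4.88 and 5.60 CPM in the labelled triple mutant, against 0 and 0.0532 CPM in WT, a ratio of 215 with a 95% counting interval of 59.1 to 1778 (adjusted p = 7.30e-07). Others fell, such as GSTF8 with 217 and 216 CPM in the labelled triple mutant, against 391 and 412 CPM in WT and GSTU25 with 32.2 and 33.4 CPM in the labelled triple mutant, against 75.5 and 81.8 CPM in WT (adjusted p = 7.30e-07 and 2.40e-06).

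The W-box, TTGACC or TTGACT on either strand, is the motif that WRKY factors bind, and it lay in 13 of 18 promoters of these transferase genes (72.2%), against 28.5% of all promoters, 28.5% of those of genes called higher and 27.5% of those of genes called lower. The promoters of GSTU3 (chr2:12629641-12629890, minus strand) and GSTU12 (chr1:26335631-26335880, minus strand) in TAIR10.1 are shown, since these genes had the largest rises among the transferases that hold the motif. Each promoter holds it 2 times, and capitals mark it in either orientation.
GSTU3: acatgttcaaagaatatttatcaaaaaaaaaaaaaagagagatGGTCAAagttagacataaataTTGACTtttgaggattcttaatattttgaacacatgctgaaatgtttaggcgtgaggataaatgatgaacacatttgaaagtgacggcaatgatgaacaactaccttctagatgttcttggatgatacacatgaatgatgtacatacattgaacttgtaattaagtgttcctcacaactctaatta
GSTU12: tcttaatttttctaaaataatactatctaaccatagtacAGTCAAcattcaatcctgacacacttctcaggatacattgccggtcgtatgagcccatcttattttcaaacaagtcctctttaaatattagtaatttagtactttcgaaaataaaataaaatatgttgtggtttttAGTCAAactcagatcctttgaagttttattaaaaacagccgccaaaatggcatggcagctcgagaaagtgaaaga

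**Figure D5:**
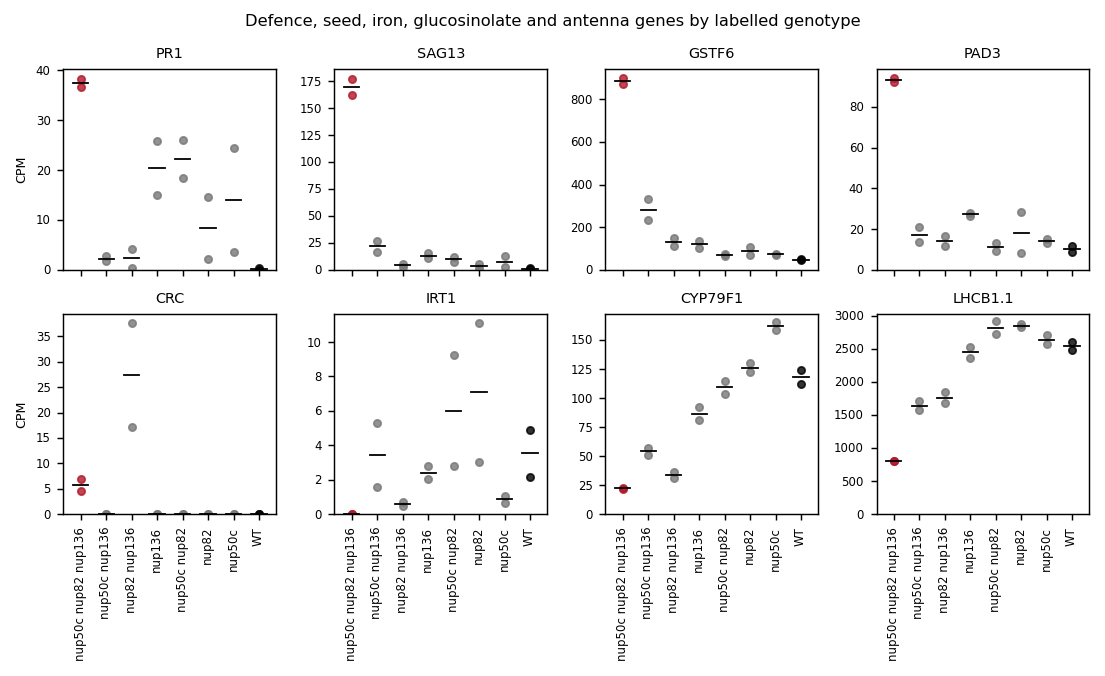
Level (CPM) of PR1, SAG13, GSTF6, PAD3, CRC (cruciferin C), IRT1, CYP79F1 and LHCB1.1 in each library of the 8 genotypes, with the labelled triple mutant at the left, WT at the right and a bar at the mean of the 2 libraries. SAG13 stands at 169 CPM in the labelled triple mutant and 0.956 CPM in WT, and CYP79F1 at 22.1 CPM in the labelled triple mutant and 118 CPM in WT.

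Root marker genes were lower in most cases. All 9 root hair genes were lower (median log2 fold change -1.57), as were 7 of 9 genes of the Casparian strip (median -1.34), the diffusion barrier of the root endodermis, with 0 higher in either list. RHD2, the NADPH oxidase of growing root hairs, had 5.33 and 5.09 CPM in the labelled triple mutant, against 19.4 and 20.5 CPM in WT (log2 fold change -1.93 ± 0.15, adjusted p = 1.33e-10). CASP1, which marks the site of the strip, had 9.85 and 9.27 CPM in the labelled triple mutant, against 28.5 and 29.2 CPM in WT (log2 fold change -1.59 ± 0.13, adjusted p = 1.63e-10). Markers of leaf and root were both detected in all 4 libraries. The root hair list summed to 250.03 and 246 CPM in the labelled triple mutant, against 373 and 362 CPM in WT. Genes for the uptake of iron, nitrate, phosphate and sulfate are expressed in roots too, and the part of the root genes' fall in their values was not tested. Of 8 genes of the root stem cell niche 1 was higher (12.5%) and 3 lower (37.5%), against 23.3% and 24.3% of all tested genes. PLT1, which keeps root stem cells, had 2.402 and 2.203 CPM in the labelled triple mutant, against 6.51 and 6.49 CPM in WT (log2 fold change -1.50 ± 0.25, adjusted p = 2.63e-05). WOX5, expressed in the quiescent centre, had 3.34 and 3.74 CPM in the labelled triple mutant, against 1.36 and 1.49 CPM in WT (log2 fold change 1.31 ± 0.29, adjusted p = 0.000635). Of 9 tested genes of ER bodies, root and seedling stores of glucosidases, 1 was higher (11.1%) and 2 lower (22.2%), against 23.3% and 24.3% of all tested genes.

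Genes of aliphatic glucosinolates were mostly lower. Of 16 tested genes for aliphatic glucosinolates, the methionine-derived mustard oil precursors, 2 were higher and 13 lower (median log2 fold change -0.96). CYP79F1, the P450 that starts the core structure, had 22.3 and 21.96 CPM in the labelled triple mutant, against 112 and 124 CPM in WT (log2 fold change -2.42 ± 0.096, adjusted p = 3.57e-16). BCAT4, the first step of chain elongation, had 55.6 and 48.7 CPM in the labelled triple mutant, against 167 and 176 CPM in WT (log2 fold change -1.72 ± 0.18, adjusted p = 1.32e-05). MYB28, the main activator of the branch, moved the other way, with 64.9 and 61.3 CPM in the labelled triple mutant, against 42.2 and 51.7 CPM in WT (log2 fold change 0.43 ± 0.090, adjusted p = 0.000329). MYB76 of the same family had 0.0961 and 0.0918 CPM in the labelled triple mutant, against 1.27 and 1.38 CPM in WT (log2 fold change -3.77 ± 0.53, adjusted p = 1.96e-06). Of 15 genes of sulfur deficiency and sulfate uptake 1 was higher and 12 lower (median -0.89); the sulfate transporter SULTR2;1 had 58.2 and 54.6 CPM in the labelled triple mutant, against 134 and 146 CPM in WT (log2 fold change -1.31 ± 0.11, adjusted p = 1.34e-09). SDI1, a marker of sulfur deficiency, had 4.73 and 4.36 CPM in the labelled triple mutant, against 13.2 and 15.2 CPM in WT (log2 fold change -1.64 ± 0.18, adjusted p = 7.78e-08).

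Of 19 tested genes of the flavonoid and anthocyanin pathway, 7 were higher (36.8%) and 4 lower (21.1%), against 23.3% and 24.3% of all tested genes. Enzymes of the late, anthocyanin end rose: DFR had 84.0 and 90.5 CPM in the labelled triple mutant, against 21.3 and 22.1 CPM in WT (log2 fold change 2.01 ± 0.12, adjusted p = 2.50e-12). LDOX had 73.3 and 73.8 CPM in the labelled triple mutant, against 14.0 and 14.7 CPM in WT (log2 fold change 2.36 ± 0.17, adjusted p = 2.62e-08). FLS1, which draws the same precursor into flavonols, had 29.6 and 31.7 CPM in the labelled triple mutant, against 86.8 and 84.4 CPM in WT (log2 fold change -1.48 ± 0.087, adjusted p = 3.87e-13). MYBL2, a repressor of anthocyanin genes, had 5.64 and 6.68 CPM in the labelled triple mutant, against 19.9 and 21.1 CPM in WT (log2 fold change -1.73 ± 0.14, adjusted p = 3.10e-10). CHS, the entry enzyme, had 219 and 211 CPM in the labelled triple mutant, against 245 and 224 CPM in WT without a call (adjusted p = 0.159). DFR averaged 124 CPM in nup50c nup136 and 60.2 CPM in the libraries labelled nup82 nup136, so that the labelled triple mutant lay below nup50c nup136 (adjusted p = 0.00140) and above the libraries labelled nup82 nup136 (adjusted p = 0.000712).

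Iron genes moved as opposite groups. Of 16 tested genes of iron uptake and its regulators, 1 was higher and 9 lower (median log2 fold change -1.28), IRT1 among them. BHLH101, a regulator that plants switch on when iron is short, had 0 and 0.0918 CPM in the labelled triple mutant, against 0.543 and 2.77 CPM in WT (adjusted p = 5.36e-05). Its log2 fold change was -3.46 without WT replicate 2, and it was at least 23.0-fold lower without labelled triple mutant replicate 2, the only 1 of that group with counts. Of 8 ferritin and nicotianamine synthase genes 5 were higher and 2 lower. FER1, an iron-storing ferritin of plastids, had 556 and 576 CPM in the labelled triple mutant, against 197 and 182 CPM in WT (log2 fold change 1.58 ± 0.15, adjusted p = 3.18e-06). NAS3, which makes the metal chelator nicotianamine, had 20.6 and 19.3 CPM in the labelled triple mutant, against 3.55 and 5.10 CPM in WT (log2 fold change 2.21 ± 0.34, adjusted p = 0.000139). In nup50c nup136 IRT1 averaged 3.44 CPM and in the libraries labelled nup82 nup136 0.587 CPM.

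Other nutrient lists were mixed. Of 20 tested nitrate genes 3 were higher and 9 lower; RFNR2, a root ferredoxin reductase that supplies nitrite reduction, had 57.9 and 62.6 CPM in the labelled triple mutant, against 155 and 187 CPM in WT (log2 fold change -1.51 ± 0.094, adjusted p = 1.44e-12). The nitrogen-responsive regulator BT1 had 26.3 and 24.7 CPM in the labelled triple mutant, against 99.6 and 85.4 CPM in WT (log2 fold change -1.86 ± 0.12, adjusted p = 1.10e-11). LBD38, a repressor of nitrate-responsive genes, had 116 and 125 CPM in the labelled triple mutant, against 71.0 and 68.5 CPM in WT (log2 fold change 0.79 ± 0.087, adjusted p = 4.60e-08). Of 20 phosphate starvation genes 4 were higher, or 2 with any 1 of the 4 libraries left out, and 6 lower (20% and 30%, against 23.3% and 24.3% of all tested genes). The phosphate transporter PHT1;1, which has close copies, had 34.4 and 29.6 CPM in the labelled triple mutant, against 92.2 and 96.5 CPM in WT (log2 fold change -1.56 ± 0.0998, adjusted p = 2.25e-12). The secreted ribonuclease RNS1, which also answers wounding and senescence, had 66.8 and 71.5 CPM in the labelled triple mutant, against 4.55 and 3.94 CPM in WT (log2 fold change 4.02 ± 0.36, adjusted p = 7.30e-06).

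Genes of heat and mitochondrial stress rose more often than they fell, and cold-regulated genes fell more often than they rose. Of 23 tested heat-shock genes 11 were higher and 1 lower (median log2 fold change 1.05). HSFA2, a heat-induced transcription factor, had 7.23 and 6.13 CPM in the labelled triple mutant, against 1.67 and 1.44 CPM in WT (log2 fold change 2.097 ± 0.33, adjusted p = 2.98e-05), and the small heat-shock protein gene HSP17.6A had 1.99 and 1.65 CPM in the labelled triple mutant, against 0.181 and 0.213 CPM in WT (log2 fold change 3.20 ± 0.71, adjusted p = 0.000590). HSFA2 averaged 8.19 CPM in nup50c nup136 and 11.8 CPM in the libraries labelled nup82 nup136 (adjusted p = 0.521 and 0.0370 for the labelled triple mutant against each). The heat shock element, searched as GAANNTTC, lay in 7 of 23 promoters of this list (30.4%), against 9.33% of all promoters. Of 13 genes induced by mitochondrial dysfunction 9 were higher and 1 lower (median 1.08); UPOX, a mitochondrial protein induced by oxidants, had 24.4 and 25.4 CPM in the labelled triple mutant, against 8.03 and 6.97 CPM in WT (log2 fold change 1.73 ± 0.14, adjusted p = 2.09e-10). The sulfotransferase SOT12 had 76.6 and 78.8 CPM in the labelled triple mutant, against 20.98 and 24.4 CPM in WT (log2 fold change 1.78 ± 0.13, adjusted p = 7.32e-11).

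Of 14 cold-regulated genes 3 were higher (1 without labelled triple mutant replicate 2 or WT replicate 1) and 9 lower (median log2 fold change -0.94). COR15B, a chloroplast protein that protects membranes in freezing, had 20.8 and 20.7 CPM in the labelled triple mutant, against 78.3 and 74.3 CPM in WT (log2 fold change -1.88 ± 0.28, adjusted p = 0.000596). KIN2, induced by cold and abscisic acid and a close copy of KIN1, had 109.6 and 116 CPM in the labelled triple mutant, against 427 and 340.1 CPM in WT (log2 fold change -1.77 ± 0.25, adjusted p = 0.000361). CBF2, an activator of such genes with close tandem copies, was among those higher, with 3.63 and 3.304 CPM in the labelled triple mutant, against 0.859 and 1.81 CPM in WT (adjusted p = 0.00321, or 0.0880 without WT replicate 1; log2 fold change 2.01 without WT replicate 2). It averaged 0.394 CPM in nup50c nup136 and 6.76 CPM in the libraries labelled nup82 nup136. In the touch and rapid stress list 2 of 12 were higher (16.7%) and 4 lower (33.3%), against 23.3% and 24.3% of all tested genes. TCH4, a wall enzyme induced by touch, had 98.2 and 99.0 CPM in the labelled triple mutant, against 469 and 535 CPM in WT (log2 fold change -2.35 ± 0.13, adjusted p = 5.18e-10).

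Growth and hormone genes were split. Of 18 auxin response genes 2 were higher and 8 lower; IAA17, a repressor of the response, had 26.6 and 22.8 CPM in the labelled triple mutant, against 58.6 and 53.8 CPM in WT (log2 fold change -1.19 ± 0.099, adjusted p = 3.25e-10). IAA19 had 2.52 and 1.84 CPM in the labelled triple mutant, against 11.6 and 7.87 CPM in WT (log2 fold change -2.16 ± 0.21, adjusted p = 6.08e-09). Of 10 type-A response regulators of cytokinin 4 were higher (40%) and 2 lower (20%), against 23.3% and 24.3% of all tested genes. ARR6 had 34.2 and 33.3 CPM in the labelled triple mutant, against 21.6 and 17.2 CPM in WT (log2 fold change 0.80 ± 0.11, adjusted p = 2.26e-06). ARR3 had 2.91 and 2.94 CPM in the labelled triple mutant, against 9.93 and 10.1 CPM in WT (log2 fold change -1.77 ± 0.22, adjusted p = 2.53e-07). Among 18 wall-loosening genes 7 were higher (38.9%) and 6 lower (33.3%), against 23.3% and 24.3% of all tested genes. The expansin EXPA1 had 237 and 236 CPM in the labelled triple mutant, against 74.2 and 76.9 CPM in WT (log2 fold change 1.65 ± 0.081, adjusted p = 1.82e-14). The wall-remodelling enzyme XTH24 had 442 and 449 CPM in the labelled triple mutant, against 124 and 108 CPM in WT (log2 fold change 1.94 ± 0.10, adjusted p = 7.39e-13). In the same families EXPA8 had 6.53 and 7.27 CPM in the labelled triple mutant, against 17.5 and 21.1 CPM in WT (log2 fold change -1.48 ± 0.17, adjusted p = 3.48e-07).

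Of 13 cell cycle genes 0 were higher and 4 lower (30.8%, against 24.3% of all tested genes). CYCB1;2, a mitotic cyclin, had 29.2 and 28.9 CPM in the labelled triple mutant, against 40.8 and 43.2 CPM in WT (log2 fold change -0.53 ± 0.098, adjusted p = 7.30e-05), and the DNA synthesis genes MCM2 and PCNA1 were not called (adjusted p = 0.239 and 0.577). In the DNA damage list 9 of 14 tested were higher and 1 lower. GMI1, a gene of DNA repair that damage induces, had 38.6 and 40.2 CPM in the labelled triple mutant, against 8.30 and 8.77 CPM in WT (log2 fold change 2.21 ± 0.16, adjusted p = 1.59e-11). The transcription factor ANAC044 had 14.1 and 11.9 CPM in the labelled triple mutant, against 2.19 and 2.61 CPM in WT (log2 fold change 2.44 ± 0.27, adjusted p = 8.19e-08). SOG1, the regulator above both, had 16.7 and 14.3 CPM in the labelled triple mutant, against 17.9 and 16.1 CPM in WT without a call (adjusted p = 0.414), and PARP1 fell, with 11.9 and 14.5 CPM in the labelled triple mutant, against 20.2 and 18.8 CPM in WT (log2 fold change -0.56 ± 0.13, adjusted p = 0.00101). In the list of DNA methylation and silencing 2 of 17 were higher and 10 lower; the demethylase ROS1 had 25.1 and 24.6 CPM in the labelled triple mutant, against 50.8 and 52.4 CPM in WT (log2 fold change -1.06 ± 0.12, adjusted p = 5.59e-08). The methyltransferase CMT2 had 23.0 and 23.9 CPM in the labelled triple mutant, against 41.2 and 40.2 CPM in WT (log2 fold change -0.80 ± 0.098, adjusted p = 2.59e-07).

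Senescence genes were more often higher and clock genes more often lower. Of 10 tested genes of senescence and chlorophyll breakdown 6 were higher and 0 lower; ORE1, a transcription factor of leaf ageing, had 21.2 and 19.4 CPM in the labelled triple mutant, against 4.91 and 5.37 CPM in WT (log2 fold change 1.98 ± 0.28, adjusted p = 1.96e-05). NYE1, which starts chlorophyll breakdown, had 36.9 and 37.5 CPM in the labelled triple mutant, against 15.0 and 17.57 CPM in WT (log2 fold change 1.19 ± 0.13, adjusted p = 6.45e-08). Of 19 clock genes 1 was higher and 11 lower. PRR7, a repressor that acts by day, had 79.6 and 79.3 CPM in the labelled triple mutant, against 139 and 155 CPM in WT (log2 fold change -0.88 ± 0.091, adjusted p = 1.25e-08). GI, which tracks dusk, had 66.5 and 68.3 CPM in the labelled triple mutant, against 116 and 111 CPM in WT (log2 fold change -0.75 ± 0.093, adjusted p = 2.93e-07). The morning genes CCA1 and LHY, with 1.85 and 2.34 CPM in the labelled triple mutant, against 1.81 and 3.51 CPM in WT, and 1.75 and 1.95 CPM in the labelled triple mutant, against 1.13 and 0.718 CPM in WT, were not called (adjusted p = 0.423 and 0.0631). The evening element, searched as AAAATATCT on both strands, lay in 4 of 19 promoters of the list (21.1%), against 2.47% of all. The time of day of harvest is not given in the labels.

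In flowering, 3 of 7 repressors were lower (42.9%) and 1 higher (14.3%). Of 6 tested promoters 2 were lower (33.3%) and 1 higher (16.7%). Over all tested genes 24.3% were lower and 23.3% higher. SVP, a repressor, had 28.0 and 28.2 CPM in the labelled triple mutant, against 46.5 and 52.5 CPM in WT (log2 fold change -0.82 ± 0.10, adjusted p = 2.68e-07). FD, the partner of the mobile signal FT at the shoot tip, had 0.312 and 0.849 CPM in the labelled triple mutant, against 3.32 and 3.96 CPM in WT (log2 fold change -2.63 ± 0.35, adjusted p = 6.98e-07, with -3.53 for the log2 fold change without labelled triple mutant replicate 2). FT itself had 0.0961 and 0.0918 CPM in the labelled triple mutant, against 0 and 0.532 CPM in WT without a call (adjusted p = 0.257). Of 6 tested flower organ genes 2 were higher (33.3%) and 0 lower. SEP3, a MADS-box factor of inner flower organs, had 48.4 and 46.3 CPM in the labelled triple mutant, against 8.62 and 9.36 CPM in WT (log2 fold change 2.398 ± 0.16, adjusted p = 3.68e-11), and averaged 31.3 CPM in nup50c nup136 and 15.2 CPM in the libraries labelled nup82 nup136. LFY, the master regulator of flower identity, had 0.0480 and 0.184 CPM in the labelled triple mutant, against 0.633 and 0.0532 CPM in WT without a call (adjusted p = 0.225).

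Seed storage and oil body genes, which serve the embryo and are normally silent after germination, were detected in the labelled triple mutant. Of 9 tested, 5 were higher and 0 lower (median log2 fold change 4.39); the count was 3 in DESeq2. CRA1, a cruciferin, had 23.0 and 18.4 CPM in the labelled triple mutant, against 0 and 1.12 CPM in WT (adjusted p = 0.00654, or 0.122 in DESeq2; log2 fold change 4.21 without WT replicate 1, and at least 305-fold higher without WT replicate 2, which held the only WT counts). OLEO2, an oil body protein, had 14.0 and 10.9 CPM in the labelled triple mutant, against 0.0452 and 0.691 CPM in WT (adjusted p = 0.0164, 0.0945 without WT replicate 1 and 0.0517 without labelled triple mutant replicate 1). CRC (AT4G28520, cruciferin C) had 6.94 and 4.57 CPM in the labelled triple mutant, against 0 and 0.0532 CPM in WT, a ratio of 234 with a 95% counting interval of 64.5 to 1940.0 (adjusted p = 5.40e-05, or 0.139 in DESeq2). The pattern over the double mutants was uneven: CRA1 averaged 0 CPM in nup50c nup136 and 33.2 CPM in the libraries labelled nup82 nup136, and OLEO2 averaged 0.339 CPM in nup50c nup136 and 19.8 CPM in the libraries labelled nup82 nup136. CRC averaged 0.0215 CPM in nup50c nup136 and 27.4 CPM in the libraries labelled nup82 nup136. Against nup50c nup136 4 of the 9 were higher in the labelled triple mutant and 0 lower, and against the libraries labelled nup82 nup136 0 were higher and 4 lower.

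OLEO1, the main oleosin, had 4.11 and 3.60 CPM in the labelled triple mutant, against 0 and 0.0532 CPM in WT, a ratio of 158 with a 95% counting interval of 43.2 to 1306 (adjusted p = 1.10e-05). The G-box CACGTG, a motif of genes that answer abscisic acid and light, lay in 4 of 9 promoters of the list (44.4%), against 7.36% of all promoters and 7.9% of those of genes called higher. The OLEO1 promoter (chr4:12900180-12900429, plus strand, TAIR10.1) is shown, as OLEO1 was the only gene of the list called higher whose promoter holds the motif. It holds the motif 2 times, in capitals.
OLEO1: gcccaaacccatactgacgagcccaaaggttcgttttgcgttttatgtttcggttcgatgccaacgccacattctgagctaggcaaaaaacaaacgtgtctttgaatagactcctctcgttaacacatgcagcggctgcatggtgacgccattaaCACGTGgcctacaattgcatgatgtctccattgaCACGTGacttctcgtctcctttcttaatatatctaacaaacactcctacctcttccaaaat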

How the data were processed

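Strand-specific mRNA sequencing of whole seedlings was analysed from the deposited table of raw read counts per gene; per the submitters' processing notes the authors aligned reads to TAIR10 with HISAT2 2.0.4 and counted them with HTSeq 0.6.1p1. The strand setting and the handling of reads with several matches are not given in the sources used here, so overlapping and antisense genes and close copies are uncertain. The authors' FPKM table was not used. Each library held 37923632 to 46194172 counts.

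Genes were kept by filterByExpr of edgeR 4.0.16 in R 4.3.3 with a minimum count of 10, scaled by TMM, and fitted with 1 coefficient per genotype over 16 libraries by the robust quasi-likelihood method, with 8 residual degrees of freedom. The labels say of no replicate number that it marks a shared batch, and no block was used. Calls were made at a Benjamini-Hochberg adjusted p under 0.05 over 22427 genes. Alternatives were DESeq2 1.42.0, its size factors, library totals, no filter, a replicate block, only the 2 genotypes compared, a 2-fold minimum and each library left out.

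The comparison, the 42 gene lists (678 of 696 genes tested) and the alternatives were chosen with earlier results of these data known. Named genes were NUP50C, NUP82 and NUP136, the top 15 each way by log2 fold change (protein coding, called, a mean of at least 1 CPM over all libraries, groups not overlapping), the top 5 each way by difference in CPM, and in each list up to 4 called members in the direction with more calls and 2 in the other; not all are printed. List members without a call were named to show the list's other members.

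In simulated counts for 22120 genes, 81% of 100 genes changed by 1 on the log2 scale and 45% of 100 changed by 0.5 were recovered. Of the unchanged genes 10 were called. No other genes were changed, and those changed were balanced each way and drawn from genes above a minimum mean count. In the data 47.6% of genes were called against WT, so these rates may not hold there. They do not describe genes near 0 counts.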

Additional observations from a re-analysis of the deposited data

How the results depend on the processing

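No gene called against WT was called in the opposite direction under any alternative. Of 239 named results 195 kept their call in all 10, 42 lost it in at least 1 and 2 gained it (NUP82 and AT2G41980). A minimum of 2-fold left 1401 higher and 1912 lower against WT, 502 and 585 against nup50c nup136, and 724 and 577 against the libraries labelled nup82 nup136. With 1 library left out, the counts ranged from 4001 to 4149 higher and 4316 to 4510 lower against WT, 1429 to 1636 and 1681 to 1947 against nup50c nup136, and 2240 to 3027 and 2223 to 2827 against the libraries labelled nup82 nup136. Library totals as the only scaling moved the median of all genes to 0.0175 on the log2 scale, with 5498 higher and 5253 lower.

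The replicate numbers did not pair the libraries: over 28 pairs of genotypes, same-numbered libraries correlated in their deviations at -0.0574 to 0.0468, with 0 pairs over 0.1. A replicate block gave 5317 higher and 5512 lower against WT.

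By list, a fit of only the 2 genotypes gave 8 lower in the pore scaffold, channel and lamina, 5 lower in mRNA export, 5 higher in nitrate and 7 lower in touch and rapid stress. No filter gave 8 higher in jasmonate synthesis and response, and DESeq2 gave 3 higher in seed storage and oil bodies. With 1 library left out, the ranges were 3 to 4 lower (scaffold), 5 to 8 higher (ribosomal proteins), 13 to 17 higher (proteasome), 1 to 3 lower (jasmonate and ethylene defence), 3 to 4 lower (salicylic acid), 2 higher in each (phosphate) and 1 to 2 higher (cold). The causes were not tested. With 2 libraries a genotype and genes near 0 counts in WT, depth limits the size of the largest folds.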

Other observations

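In each of the following classes the shares called lay below those of all tested genes, 23.3% higher and 24.3% lower. Of 112 tested snoRNA genes 12 (10.7%) were higher in the labelled triple mutant than in WT and 4 (3.57%) lower, with a median log2 fold change of 0.44, and of 64 tested microRNA genes 2 (3.12%) were higher and 12 (18.8%) lower, with a median of -0.60. Both classes were counted in libraries made for messenger RNA, in which fragments of precursors or host transcripts are read. Of 434 tested lncRNA genes 25 (5.76%) were higher and 44 (10.1%) lower. Of 36 tested genes of the mitochondrial genome 2 were higher and 2 lower.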
